A study of Homo sapiens with 12 samples.

Results

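The genes described here are 10 inflammatory cytokines and chemokines, taken as a fixed list of names from the 58302 genes of the RNA-seq count table. They are the interleukin-1 cytokines *IL1A* and *IL1B*, the gp130 cytokines *IL6* and *LIF*, the colony-stimulating factor *CSF2*, the CXC chemokines *CXCL1*, *CXCL2*, *CXCL3* and *CXCL8*, and the CC chemokine *CCL20*. All 10 passed the filter on low counts, *IL6* and *CSF2* through the libraries numbered 1 alone. The study examined m6A methylation in human oral squamous cell carcinoma (OSCC) cells in which autophagy was activated with rapamycin, an inhibitor of the kinase mTOR. RNA-seq comprised 4 libraries, 2 of cells given 100 nM rapamycin and 2 of control cells. MeRIP-seq, in which RNA fragments carrying m6A are pulled down with an antibody and sequenced beside their input, comprised 8 libraries, 1 pair for each combination of cell line (HSC3 or CAL33) and treatment (none, or 100 nM rapamycin over 3 days). HSC3 and CAL33 are established human OSCC lines, and no engineered allele is named for any group.

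In the titles of the MeRIP-seq libraries number 1 marks HSC3 and number 2 marks CAL33. The RNA-seq labels instead give HSC3 for both rapamycin libraries and CAL33 for both controls. If those labels hold, treatment and cell line cannot be told apart in the RNA-seq data, so the RNA-seq libraries are called here by treatment and number. Nothing states that same-treatment libraries came from separate cultures, and p-values therefore measure the spread between these 4 libraries. They held between 18492273 and 23763098 counts. Levels are given in CPM, counts scaled to a common library size with TMM factors, which can be set against each other between libraries but not between genes of different length.

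Squamous markers differed by number, with 1 of 13 (*CDH1*) higher in number 1, 9 lower and 3 not called (edgeR with treatment as a term). *KRT14*, a basal keratin and 1 of the 9, had 0 counts in both number 1 libraries and 23 and 221 counts in rapamycin 2 and control 2. This gene passed the filter on low counts through number 2 alone, so its call is no support for a difference. *KRT17*, a keratin of stressed epithelium, was at 5.05 and 4.89 CPM in rapamycin 1 and control 1, against 2119 and 1346 CPM in rapamycin 2 and control 2. Of 18 leukocyte markers, 15 were under 1 CPM in each of the 4 libraries, the T-cell marker *CD3E* and the B-cell marker *MS4A1* among them. The summed level of that list was 25.8 and 28.2 CPM in rapamycin 1 and control 1, against 1.48 and 1.10 CPM in rapamycin 2 and control 2. *CSF1R*, the receptor for CSF1, made most of it, at 15.7 and 20.7 CPM in the number 1 libraries. The summed level of 9 fibroblast markers was 47.1 and 36.2 CPM in rapamycin 1 and control 1 and 28.6 and 8.96 CPM in rapamycin 2 and control 2. That of 7 endothelial markers was 1.47 and 2.63 CPM in rapamycin 1 and control 1 and 45.4 and 31.0 CPM in rapamycin 2 and control 2. The part of these markers in the results below was not tested.

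These secreted proteins start and spread inflammation. IL-1α and IL-1β bind IL1R1 and turn on NF-κB and AP-1, which in turn switch on the genes for IL-6, the CXC chemokines, CCL20 and GM-CSF. CXCL1, CXCL2, CXCL3 and CXCL8 attract neutrophils through CXCR2, and CCL20 attracts lymphocytes and dendritic cells through CCR6. Many of their mRNAs carry AU-rich elements and are short-lived. Squamous carcinoma cells often make these factors themselves.

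Without regard to the number, no cytokine or chemokine of the 10 was called as changed with rapamycin. Their log2 fold changes in that fit ranged from -0.40 (SE 1.04) for *CXCL1* to 3.37 (SE 1.93) for *CCL20*. Of 15826 genes tested, 0% had an adjusted p under 0.05 by edgeR's quasi-likelihood test, and neither did any of the 10, whose adjusted p was 0.9997 in each case. Before adjustment, 446 genes (2.82% of those tested) and 0 of the 10 had a p under 0.05. DESeq2 without the block called 42 genes and 0 of the 10, but it gave no adjusted p for *IL6*, *CSF2*, *CXCL2*, *CXCL3* and *CCL20*. Before adjustment, 788 genes and 3 of the 10 had a p under 0.05 by DESeq2. Same-numbered libraries were much more alike than libraries of the same treatment, so the spread between numbers 1 and 2 enters the error of this comparison.

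With the number as a block, *IL1A*, *IL6*, *LIF* and *CXCL8* rose with rapamycin and none of the 10 fell. In that fit 8.15% of all genes tested passed the threshold, 4.65% higher and 3.5% lower. The other 6 genes did not pass. The median log2 fold change was 1.58 over the 10 genes and 0.05 over all genes tested. The 10 genes were chosen with earlier results of these data known, so these medians describe the list and test nothing. DESeq2 with the block called the same 4 genes, with an adjusted p of 0.0486 for *IL6*. The blocked comparison leaves 1 residual degree of freedom, with dispersion shared across genes, and it holds only as far as the numbers pair the libraries.

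**Figure D1:**
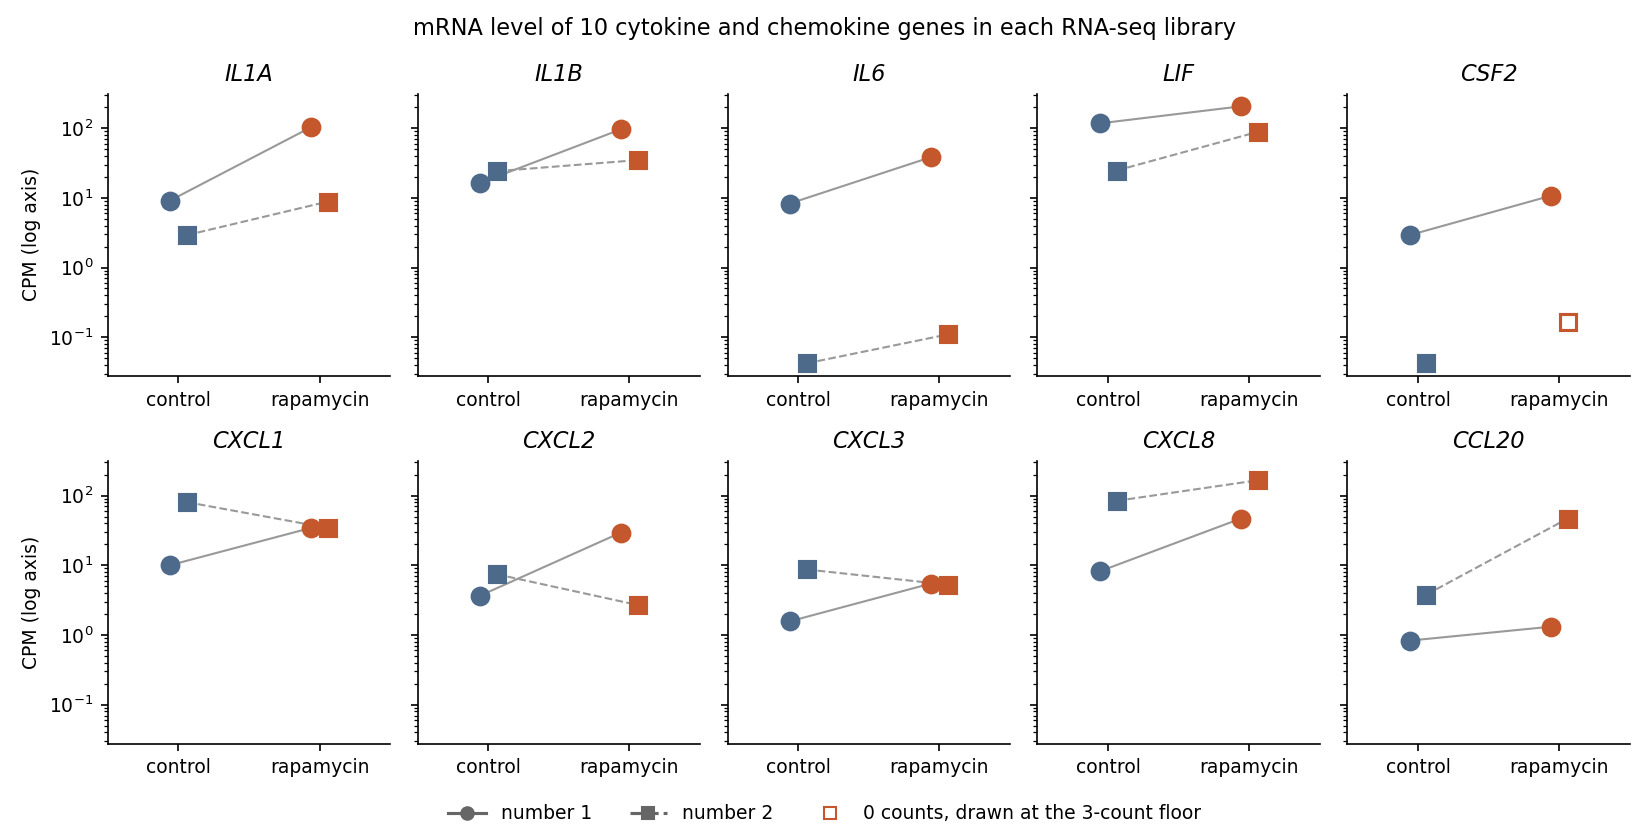
mRNA level of each of the 10 genes in the 4 RNA-seq libraries, in CPM on a log axis, with control on the left and rapamycin on the right. Circles joined by solid lines are number 1, squares joined by dashed lines are number 2, and the open square is a library with 0 counts drawn at the level of 3 counts. *CXCL1*, *CXCL2* and *CXCL3* go up in number 1 and down in number 2.

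*IL1A* (ENSG00000115008, chr2:112773925-112784493, GRCh38.p14) encodes IL-1α, a cytokine that dying or stressed epithelial cells release without a signal peptide. It was at 103 CPM in rapamycin 1 and 9.10 CPM in control 1, and at 8.83 CPM in rapamycin 2 and 2.92 CPM in control 2. Rapamycin 1 stood far above the other 3 libraries, and rapamycin 2 lay just below control 1, so the treatments overlapped. The ratio of rapamycin to control was 11.3 in number 1 (95% exact interval from the counts 9.77 to 13.2) and 3.03 in number 2 (2.27 to 4.08). These intervals, here and below, cover counting error alone. The log2 fold change with the block was 2.61 (SE 0.44, adjusted p = 0.00456, edgeR). On the log2 CPM scale with a prior count of 2, *IL1A* was the member at least 2-fold higher with rapamycin in both numbered pairs, as were 4.87% of all genes tested. The ratio of *IL6*, without a prior count, was also over 2 in both pairs, in number 2 on 2 and 1 counts.

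*IL1B* (ENSG00000125538), for the inflammasome-processed IL-1β, was at 96.0 and 34.7 CPM in rapamycin 1 and 2 and at 16.3 and 24.1 CPM in control 1 and 2. Both rapamycin libraries lay above both controls, which held for no other gene of the 10 and for 15% of all genes tested. The ratio to control was 5.91 in number 1 and 1.44 in number 2. With the block the log2 fold change was 1.54 (SE 0.48), and it did not pass the threshold (adjusted p = 0.0980, edgeR).

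*IL6* (ENSG00000136244), for the cytokine that signals through IL6R and gp130, was a gene of the number 1 libraries. It had 727 counts in rapamycin 1 and 179 in control 1, and 2 and 1 counts in rapamycin 2 and control 2. In CPM it was at 38.2, 8.27, 0.11 and 0.04 in the same order. The ratio to control was 4.63 in number 1 (3.92 to 5.48) and 2.60 in number 2, where the interval ran from 0.135 to 153. The blocked log2 fold change of 2.13 (SE 0.53, adjusted p = 0.0137, edgeR) therefore rests on number 1.

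*LIF* (ENSG00000128342, chr22:30240453-30246759), for the leukaemia inhibitory factor that binds LIFR and gp130, was at 205 and 88.2 CPM in rapamycin 1 and 2 and at 117 and 24.6 CPM in control 1 and 2. Each number 1 library lay above each number 2 library. Within a number, rapamycin was higher, 1.75-fold in number 1 (1.67 to 1.85) and 3.59-fold in number 2 (3.26 to 3.95). The blocked log2 fold change was 1.32 (SE 0.28, adjusted p = 0.00623, edgeR).

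*CSF2* (ENSG00000164400), which encodes GM-CSF, a growth factor for granulocytes and macrophages, resembled *IL6* in its levels. It had 203 and 63 counts in rapamycin 1 and control 1, and 0 and 1 counts in rapamycin 2 and control 2. Its level was 3.67-fold higher with rapamycin in number 1 (2.75 to 4.95), and no ratio is given for number 2. The blocked test was not passed (log2 fold change 1.62, SE 0.75, adjusted p = 0.186, edgeR).

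*CXCL8* (ENSG00000169429, chr4:73740569-73743716), for interleukin-8, had the opposite order of numbers. It was at 46.8 and 166 CPM in rapamycin 1 and 2 and at 8.17 and 83.9 CPM in control 1 and 2, with both number 2 libraries above both number 1 libraries. Rapamycin was higher within each number, 5.72-fold in number 1 (4.86 to 6.76) and 1.97-fold in number 2 (1.86 to 2.09). The blocked log2 fold change was 1.72 (SE 0.34, adjusted p = 0.00745, edgeR).

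*CCL20* (ENSG00000115009) was at 1.31 and 46.8 CPM in rapamycin 1 and 2 and at 0.83 and 3.80 CPM in control 1 and 2. One library, rapamycin 2, stood above the rest. The ratio to control was 12.3 in number 2 (9.89 to 15.5) and 1.58 in number 1, where the interval of 0.829 to 3.08 held 1. The blocked log2 fold change of 2.46 (SE 0.70) missed the threshold (adjusted p = 0.0685, edgeR).

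The 3 GRO chemokines were higher with rapamycin in number 1 and lower in number 2. *CXCL1* (ENSG00000163739, chr4:73869393-73871308) was at 34.4 CPM in rapamycin 1 and 10.02 CPM in control 1, against 34.2 CPM in rapamycin 2 and 80.5 CPM in control 2. The rapamycin libraries were level with each other while the controls differed 8.03-fold. With rapamycin it was 3.43-fold higher in number 1 (2.94 to 4.02) and 2.35-fold lower in number 2 (2.15 to 2.58).

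*CXCL2* (ENSG00000081041, chr4:74097040-74099195) was at 29.5 and 2.69 CPM in rapamycin 1 and 2 and at 3.65 and 7.44 CPM in control 1 and 2. It was 8.09-fold higher with rapamycin in number 1 (6.38 to 10.4) and 2.77-fold lower in number 2 (2.01 to 3.88). *CXCL3* (ENSG00000163734, chr4:74036589-74038689) was at 5.47 and 5.27 CPM in rapamycin 1 and 2 and at 1.57 and 8.70 CPM in control 1 and 2, which is 3.48-fold higher in number 1 and 1.65-fold lower in number 2. The blocked log2 fold changes were 0.24 (SE 1.18), 0.84 (SE 2.06) and 0.48 (SE 0.59) for *CXCL1*, *CXCL2* and *CXCL3*, and none was called (adjusted p = 0.933, 0.870 and 0.677, edgeR).

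*CXCL1* and *CXCL2* were among 35 genes (0.221% of those tested) that were at least 2-fold higher with rapamycin in number 1 and at least 2-fold lower in number 2. The difference between the pairs could not be tested, since no residual degree of freedom is left. These 3 genes are near copies of each other, so reads may have been split between them. Their summed counts gave a log2 fold change of -0.004 without the block, a value that pools the 2 numbers. Since each of the 3 genes was higher with rapamycin in number 1 and lower in number 2, their sum was too.

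**Figure D2:**
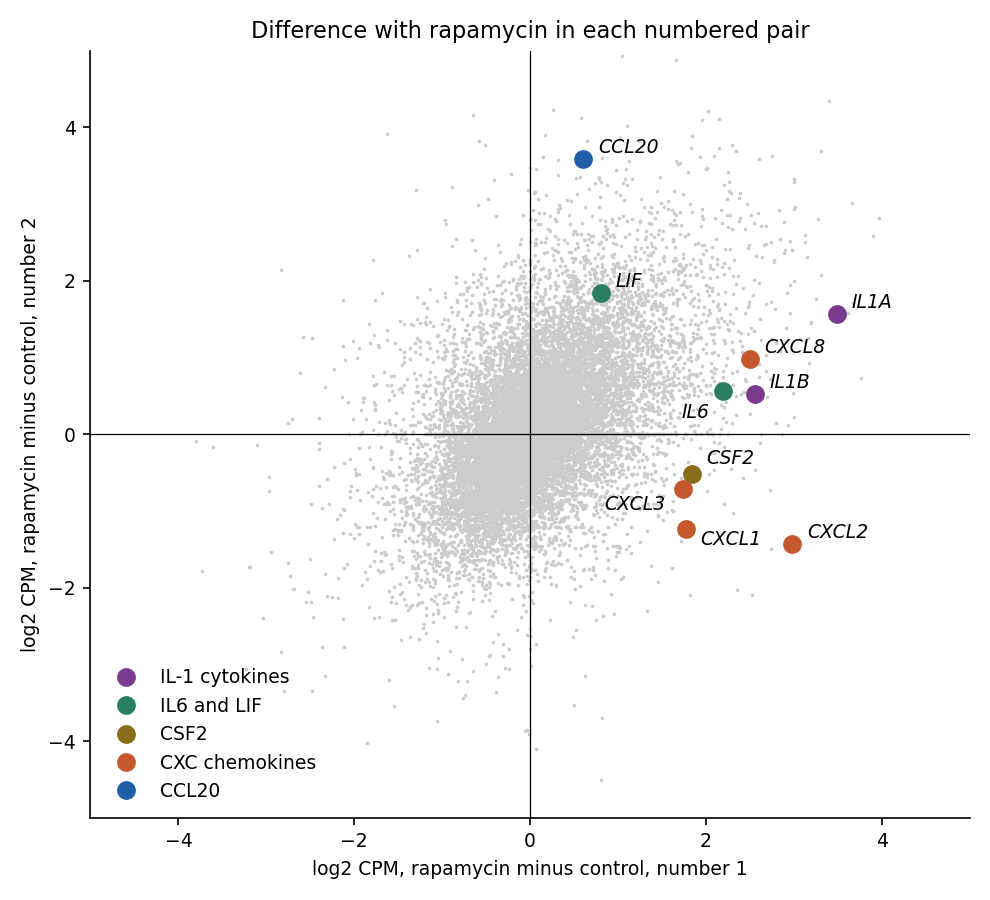
Log2 CPM (prior count 2), rapamycin minus control, in number 1 on the x axis and number 2 on the y axis. Grey dots are all genes tested, 6 of them outside the axes, and coloured points are the 10 genes. *IL1A*, *IL1B*, *IL6*, *LIF*, *CXCL8* and *CCL20* lie above 0 on both axes. The number 2 value of *CSF2* rests on 0 and 1 counts, and that of *IL6* on 2 and 1 counts.

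Over the 10 genes, 6 were higher with rapamycin in both numbered pairs, as were 34.6% of all genes tested. Another 4 were higher in number 1 and lower in number 2, as were 13.7%. Among the 6, *IL6* had 2 and 1 counts in number 2, and the interval of *CCL20* in number 1 (0.829 to 3.08) held 1. Among the 4, *CSF2* had 0 and 1 counts in number 2, and *CXCL1*, *CXCL2* and *CXCL3* are near copies that may share reads. Opposite directions of either kind were seen in 30.1% of all genes tested. The median log2 difference with rapamycin was 2.02 in number 1 and 0.55 in number 2, against 0.00 and 0.03 over all genes tested.

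The proximal promoters of these genes hold κB-like sequences, which are shown because *CXCL8* and *IL6* rose in the blocked comparison while *CXCL1*, *CXCL2* and *CXCL3*, with nearly the same letters, moved in opposite directions in the 2 pairs. The promoters are RefSeq sequences of GRCh38.p14 from 250 bases before to 50 after a gene's start, and 9 of the 10 genes were matched, with *LIF* not matched. The motifs were chosen after these promoters were read. GGNNTTTCC, searched on both strands, occurred in *CXCL1*, *CXCL2*, *CXCL3*, *CXCL8*, *IL6* and *CCL20*, and in 6.26% of all 35116 promoters. GGAATTTCC, which is 1 form of it, occurred in *CXCL1*, *CXCL2*, *CXCL3* and *CXCL8*, and in 0.461% of all promoters. Each stretch is written 5′ to 3′ on the gene's strand, with the motif in capitals, which begins between 72 and 91 bases before the annotated start of the gene. In *CCL20* the motif lies on the other strand.
CXCL1: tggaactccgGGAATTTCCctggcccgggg
CXCL2: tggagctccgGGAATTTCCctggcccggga
CXCL3: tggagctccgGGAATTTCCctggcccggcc
CXCL8: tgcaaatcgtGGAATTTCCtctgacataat
IL6: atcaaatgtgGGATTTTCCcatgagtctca
CCL20: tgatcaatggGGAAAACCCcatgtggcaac

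The stretches lie at chr4:73869305-73869334 (plus strand) for *CXCL1*, chr4:74099253-74099282 (minus strand) for *CXCL2*, chr4:74038748-74038777 (minus strand) for *CXCL3*, chr4:73740468-73740497 (plus strand) for *CXCL8*, chr7:22727118-22727147 (plus strand) for *IL6* and chr2:227813753-227813782 (plus strand) for *CCL20*. The 9 matched letters are the same in *CXCL1*, *CXCL2*, *CXCL3* and *CXCL8*. *CXCL1*, *CXCL2* and *CXCL3* each hold GGNNTTTCC once more, 53 bases before the start. The AP-1 motif TGANTCA, searched on both strands, occurred in *IL1A* and *CXCL8* and in 7.71% of all promoters. It is shown because both of these genes rose in the blocked comparison. The *IL1A* stretch lies at chr2:112784487-112784516 (minus strand) and that of *CXCL8* at chr4:73740421-73740450 (plus strand). The *IL1A* motif shown begins 12 or 105 bases before the start, depending on which annotated start is used. *IL1A* holds the motif once more, as TGAGTCA, within chr2:112784437-112784466 (minus strand). A match is a description of the letters and not of binding.
IL1A: gcgaagaagacTGACTCAggcttaagctgc
CXCL8: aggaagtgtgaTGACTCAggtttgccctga

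Between the libraries numbered 1 and 2 the called genes went both ways. With treatment as a term, *IL1A*, *IL6*, *LIF* and *CSF2* were higher in number 1, *CXCL8* and *CCL20* were higher in number 2, and *IL1B*, *CXCL1*, *CXCL2* and *CXCL3* did not pass the threshold. Of all genes tested, 37.3% passed, 20.2% higher and 17% lower in number 1. *IL6* and *CSF2* entered the test through the number 1 libraries in which they are high, so their calls are no support for a difference and their counts are given instead. The levels of the 6 called genes did not overlap between the numbers, a share close to the 59% of all genes tested, where 30.2% had number 1 above and 28.8% had number 2 above.

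*IL6* showed the widest gap of these with counts in all 4 libraries, at 196-fold between control 1 and control 2 (95% exact interval from the counts 34.7 to 7771) and 348-fold between rapamycin 1 and rapamycin 2 (96.1 to 2883). *CSF2* was 68.9-fold higher in control 1 than in control 2 (11.9 to 2763). It was 64.9-fold higher in rapamycin 1 than in rapamycin 2 with the 0 counts of rapamycin 2 set to a floor of 3 counts. The lower end of the 95% exact interval for that ratio, without the floor, was 52.3.

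*LIF* and *IL1A* differed less, by log2 1.73 (SE 0.28, adjusted p = 2.90e-05, edgeR) and 2.65 (SE 0.44, adjusted p = 0.000295, edgeR). *CXCL8* was 10.3-fold higher in control 2 than in control 1 and 3.54-fold higher in rapamycin 2 than in rapamycin 1 (log2 difference of number 1 minus number 2 -2.57, SE 0.35, adjusted p = 2.50e-05, edgeR). *CCL20* was 4.57-fold higher in control 2 and 35.6-fold higher in rapamycin 2 (log2 difference -3.80, SE 0.71, adjusted p = 0.00253, edgeR). *CXCL1* was 8.03-fold higher in control 2 and level between the rapamycin libraries, and its log2 difference of -1.49 (SE 1.19) was not called.

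**Figure D3:**
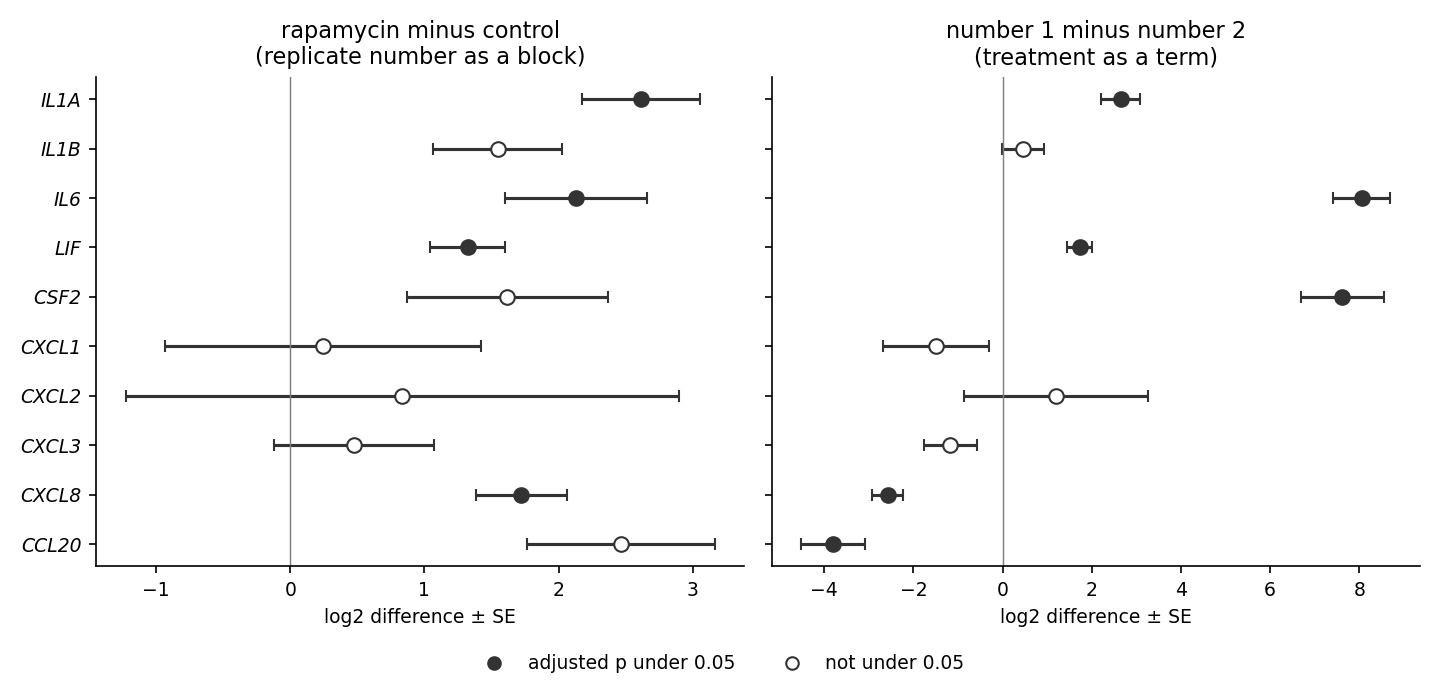
Log2 differences of the 10 genes with their standard errors, rapamycin minus control with the number as a block on the left and number 1 minus number 2 with treatment as a term on the right. Filled points have an adjusted p under 0.05 (edgeR), which are 4 genes on the left and 6 on the right, *IL6* and *CSF2* among the latter having passed the filter through number 1 alone.

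Genes of the same pathways were read from lists of names, each counted in the blocked comparison beside the 4.65% of all genes that were higher and the 3.5% that were lower with rapamycin. Of 20 tested genes of the interleukin-1 family and its control, 3 rose and 0 fell, with a median log2 fold change of 0.32. They were *IL1A*, the inflammasome sensor *NLRP1* (1.52, adjusted p = 0.00809, edgeR) and *IRAK2*, a kinase-like adaptor of the interleukin-1 receptor (1.10, adjusted p = 0.0214, edgeR). *IL1RN*, the secreted antagonist of IL-1α and IL-1β, was at 2.68 and 9.82 CPM in rapamycin 1 and 2 and at 4.25 and 27.5 CPM in control 1 and 2, lower with rapamycin in both pairs, and missed the threshold (log2 fold change -1.10, adjusted p = 0.0942, edgeR).

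Of the receptors for these factors, 8 of 13 were tested, and none passed with rapamycin. *IL1R1* was at 17.7 and 5.87 CPM in rapamycin 1 and 2 and 13.7 and 4.06 CPM in control 1 and 2. *IL6ST*, the gp130 chain that IL-6 and LIF share, was at 188 and 72.0 CPM with rapamycin and 223 and 84.4 CPM in control. *LIFR* was at 38.9 and 37.0 CPM with rapamycin and 39.2 and 14.1 CPM in control. The receptors of the chemokines were low or not counted. *CXCR2*, which binds all 4 CXC chemokines here, had 3 and 34 counts with rapamycin and 0 and 20 in control, *CXCR1* had at most 1 count in each library, and *CCR6*, the receptor of CCL20, had 0 counts in all 4, where 3 counts is at most 0.165 CPM.

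*CSF2RA*, the GM-CSF binding chain, was at 23.4 and 19.3 CPM in rapamycin 1 and control 1 and had 8 and 1 counts in rapamycin 2 and control 2. The number 1 libraries thus held mRNA of both *CSF2* and this receptor chain. *CSF2RB*, the signalling chain, had 13 and 4 counts in rapamycin 1 and control 1 and 0 in the others.

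Of 7 tested other chemokines 1 rose, *CCL5*, a chemokine for T cells, at 31.3 CPM in rapamycin 2 and 7.98 CPM in control 2, with 2 and 1 counts in rapamycin 1 and control 1 (log2 fold change 1.89, adjusted p = 0.0318, edgeR). Of 21 tested other cytokines 3 rose and 0 fell. *IL11*, like *LIF* a gp130 cytokine, was at 121 and 22.7 CPM in rapamycin 1 and control 1 and at 0.55 and 0.21 CPM in rapamycin 2 and control 2 (2.21, adjusted p = 0.00154, edgeR). *HBEGF*, an EGF receptor ligand, rose by log2 1.52 (adjusted p = 0.00452, edgeR). *TNF* had 527 and 301 counts in rapamycin 1 and control 1 and 0 counts in both number 2 libraries. These levels were 168-fold and 110-fold over a floor of 3 counts in the number 2 library of the same treatment. *TNF* was not called with rapamycin (adjusted p = 0.288, edgeR).

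Of 19 genes for NF-κB subunits and their feedback, 6 rose and 0 fell, with a median log2 fold change of 0.56. *TRAF1*, an adaptor of TNF receptors, was at 26.3 and 6.47 CPM with rapamycin and 11.7 and 2.49 CPM in control (1.27, adjusted p = 0.0438, edgeR). *NFKB2*, the p100 subunit, was at 167 and 116 CPM with rapamycin and 109 and 37.7 CPM in control (1.11, adjusted p = 0.0159, edgeR). The other 4 were *TNFAIP3*, *TNIP1*, *RELB* and *NFKBIZ*, with log2 fold changes between 0.99 and 1.07.

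Of 13 genes in a list of other transcription factors and *SOCS3*, 5 rose and 0 fell, with a median of 1.17. *ATF3*, a stress-induced bZIP factor, was at 65.1 and 45.0 CPM with rapamycin and 11.1 and 6.59 CPM in control, so the treatments did not overlap (2.66, SE 0.32, adjusted p = 1.25e-05, edgeR). *FOS*, a partner in AP-1, was at 18.1 and 53.6 CPM with rapamycin and 6.37 and 12.4 CPM in control (1.82, adjusted p = 0.00184, edgeR). The other 3 were *JUNB*, *KLF4* and *CEBPB*. Between numbers, *FOSL1*, an AP-1 subunit, was higher in number 1 (4.54, adjusted p = 1.24e-09, edgeR) and *CEBPD* in number 2 (-3.50, adjusted p = 5.02e-05, edgeR).

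Of 16 genes that act on AU-rich or cytokine mRNAs, 3 rose and 0 fell, with a median of -0.21. *ZFP36*, which encodes tristetraprolin, a protein that hastens decay of AU-rich mRNAs, was at 54.7 and 93.6 CPM with rapamycin and 31.3 and 27.2 CPM in control (1.30, SE 0.30, adjusted p = 0.00880, edgeR). *AUH* (1.11, adjusted p = 0.0407, edgeR) and *ZFP36L1*, a relative of *ZFP36* (1.03, adjusted p = 0.0174, edgeR), were the others. Of 13 squamous markers 0 rose and 3 fell, among them *KRT6A* (-5.46, adjusted p = 0.00374, edgeR) and *KRT14* (-2.85, adjusted p = 0.0327, edgeR), and their part in the changes above was not tested. None of the 9 tested markers of leukocytes, fibroblasts and endothelium passed with rapamycin. Across these lists edgeR made no call without the block.

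**Figure D4:**
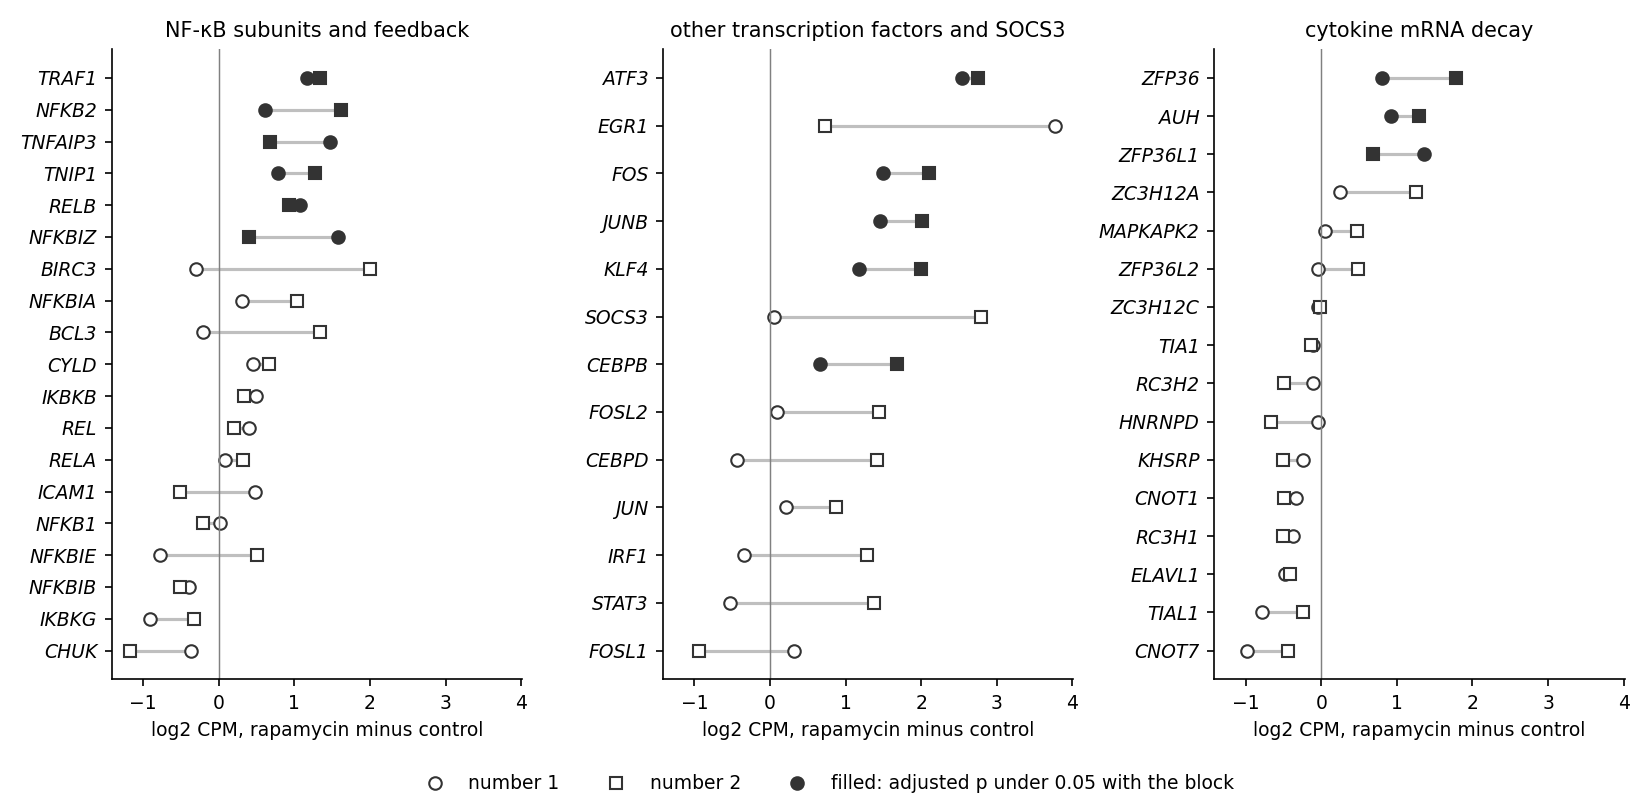
Log2 CPM, rapamycin minus control, of the tested genes of 3 lists, with circles for number 1 and squares for number 2 joined by a line. Filled symbols mark genes with an adjusted p under 0.05 in the blocked comparison (edgeR), which are 6 of 19, 5 of 13 and 3 of 16 genes, all of them to the right of 0 in both numbers.

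The gene of the 10 with a call and the highest mean log2 CPM was *LIF*. Among 12165 other genes with a mean log2 CPM of at least 1, the nearest in Euclidean distance of the centred log2 CPM over the 4 libraries were *TYMP* (0.22), *COL11A2* (0.22) and *MERTK* (0.23). *TYMP*, for a phosphorylase of thymidine, was at 17.0 and 7.46 CPM in rapamycin 1 and 2 and at 9.24 and 2.32 CPM in control 1 and 2. The order of libraries is that of *LIF*, which follows from the choice of *TYMP* by distance.

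*LIF* was also the gene of the 10 with a listed m6A peak. The other 9 genes had none in any of the 4 peak lists, whereas 35.4% of the genes tested in RNA-seq had a peak in at least 1 list. *LIF* had a peak in the HSC3 rapamycin list (17.5% of tested genes had one there) and in the CAL33 rapamycin list (14.2%), and none in the HSC3 control (17.6%) or CAL33 control list (16.1%). Of the tested genes, 183 (1.16%) had a peak in both rapamycin lists and in neither control list, and 245 (1.55%) had the reverse. There was 1 list for each cell line and treatment and no replicate, so no test was made.

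The HSC3 peak lay on the minus strand at chr22:30243102-30243281, was 180 bp long and had a fold enrichment of immunoprecipitated RNA over input of 24.6 with a p-value of 1.2e-05, as deposited. It ranked at percentile 40.8 of the 3952 peaks of its list. The CAL33 peak lay at chr22:30241253-30241432, was also 180 bp long and had a fold enrichment of 21.4 with a p-value of 6.2e-05, at percentile 36.6 of 3079 peaks. The authors annotated both as 3′ UTR. They did not overlap and were 1669 bp apart, in a gene that spans 6307 bp. *LIF* mRNA was also higher with rapamycin in both numbered pairs of the RNA-seq data, and its part in the listing of the peaks was not tested.

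**Figure D5:**
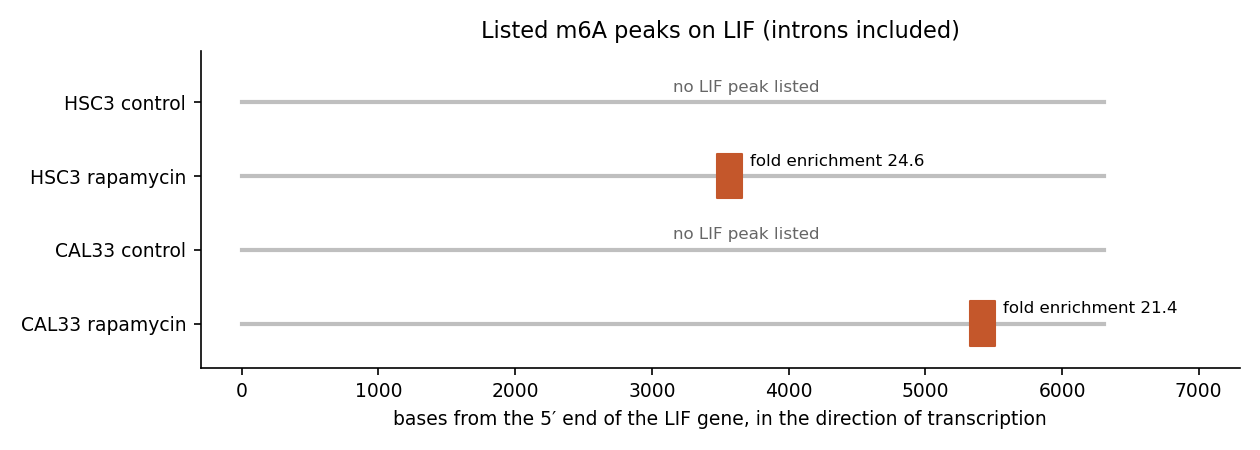
Position of the listed m6A peaks along the *LIF* gene in the 4 lists, in bases from the gene's 5′ end, introns included. Grey lines are the gene, boxes are peaks with their fold enrichment of 24.6 in HSC3 rapamycin and 21.4 in CAL33 rapamycin, and the control lists hold none.

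Among the receptors, *LIFR* had the same listing as its ligand, with 1 CDS peak in each rapamycin list and none in the control lists. The HSC3 peak was at chr5:38481554-38481763 with a fold enrichment of 49.2 and the CAL33 peak at chr5:38481703-38481913 with 26.8, and they shared 61 bp. *IL6ST* had a peak in the HSC3 control, HSC3 rapamycin and CAL33 rapamycin lists, with fold enrichments of 150, 15.5 and 61.6. *IL1R1* had 1 in each control list, at 22.4 in HSC3 and 42.6 in CAL33, and none in the rapamycin lists. *IL6R* and *CSF2RA* had 1 each in the HSC3 rapamycin list. The HSC3 control peak of *IL1R1* and the *CSF2RA* peak did not reach a false discovery rate of 0.05 (log10 values -1.21 and -0.3). Under that limit *IL1R1* would keep its CAL33 control peak alone (log10 value -6.52), and *CSF2RA* would have none. *OSMR*, a receptor chain that pairs with gp130, had a CDS peak in the HSC3 control, CAL33 control and CAL33 rapamycin lists, with fold enrichments of 3.99, 13.1 and 5.04. The other 7 of the 13 receptors had none.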

How the data were processed

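RNA-seq was performed on 4 libraries and MeRIP-seq on 8. The RNA-seq table that the authors deposited holds raw counts per Ensembl gene, not normalized, and 98.7% of its identifiers matched a symbol. For each MeRIP-seq pair the authors deposited a list of m6A peaks with a fold enrichment (a ratio to input), a p-value and log10 values of p and the false discovery rate. The submitters' processing notes name cutadapt 2.5, HISAT2 2.1.0, featureCounts 1.6.3, HOMER 4.10.4 and hg38, with no role or order. The annotation version, the strand setting of counting and the peak caller's settings are not given in the sources used here. The RNA kit marks strand, but reads of antisense partners cannot be told apart without that setting.

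The counts were fitted with edgeR 4.0.16 under R 4.3.3 (filterByExpr, TMM, robust quasi-likelihood test, Benjamini-Hochberg adjustment over all 15826 genes, threshold 0.05), comparing rapamycin with control without a block. The number 1 to 2 difference was taken from a fit with treatment as a term. Exact intervals for ratios of counts came from the binomial distribution (binom.test in R).

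Pairing by number was checked. Across genes, which are not replicates, the number 1 to 2 difference with rapamycin had r = 0.90 with that in control (15826 genes), and log2 CPM correlated at 0.96 to 0.97 between same-numbered libraries and at 0.76 to 0.81 between the others. The pairing comes from the numbering of the MeRIP-seq libraries, where a number marks a cell line, while the RNA-seq cell line labels speak against it. The blocked value is printed because it changes calls.

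The 10 genes, the gene lists and the rules were chosen with earlier results of these data known. Named from each list were up to 2 highest and 2 lowest called genes, and receptors or antagonists of the 10. Genes named beyond that were chosen after their values were seen. The alternatives were DESeq2 1.42.0, other normalizations and filters, summed paralogs, the block, each library left out, and stricter peak and overlap rules. The tests were first tested on simulated data. Sequences are from RefSeq.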

Additional observations from a re-analysis of the deposited data

Results flagged for a closer look

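*CXCL1*, *CXCL2* and *CXCL3* moved with rapamycin in opposite directions in the numbered pairs. On the log2 CPM scale, rapamycin minus control was 1.77 in number 1 and -1.23 in number 2 for *CXCL1*, 2.98 and -1.44 for *CXCL2*, and 1.74 and -0.71 for *CXCL3*. *TNFSF10*, which encodes the death ligand TRAIL, moved the other way round, by -1.0 in number 1, on 14 and 34 counts, and by 1.44 in number 2. Each number has 1 library per treatment, so the difference between the pairs was not tested. Opposite directions were seen in 30.1% of all genes tested.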

How the results depend on the processing

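The number of genes changed with rapamycin was 0 without the block, 42 with DESeq2, 1290 with the replicate block and, as alternatives chosen after seeing the data, 818 with the block and DESeq2, 1230 with the block and RLE normalization, 1165 with the block and upper-quartile normalization, 1606 with the block and no filter, and 1236 with the block and at least 10 counts in every library. The number of the 10 genes called was 0 without the block and 4 with it, and with these variants of the block 4, 4, 4, 6 and 3, in the same order. The 6 added *IL1B* and *CCL20*, and the 3 lacked *IL6*, which had under 10 counts in number 2. Between the numbers, 5899 genes differed, 3927 with at least 10 counts in every library and 3057 with no treatment term, where 3 of the 10 remained called and *IL1A*, *LIF* and *CXCL8* did not pass.

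The block turned the log2 fold change of *CXCL1* from -0.40 to 0.24. Leaving out 1 library leaves a library without its numbered partner and assumes that a lone sample varies like the rest. For rapamycin these fits had no block, so a lone library was set against libraries of both numbers. They therefore do not bear on the 4 blocked calls. Without each replicate in turn, the lowest and highest log2 fold changes with rapamycin were -5.19 and 8.58 for *IL6*, -7.98 and 6.74 for *CSF2*, -1.29 and 1.77 for *CXCL1*, -1.07 and 2.39 for *CXCL2*, -0.76 and 1.76 for *CXCL3*, -0.0058 and 3.69 for *CXCL8* and -0.84 and 4.83 for *CCL20*. The direction turned without rapamycin 1 for *IL6*, *CSF2* and *CXCL2*, without rapamycin 2 for *CXCL8* and *CCL20*, without control 1 for *CXCL3* and without control 2 for *CXCL1*, while *IL1A* (0.53 to 4.21), *IL1B* (0.76 to 2.23) and *LIF* (0.29 to 2.52) stayed positive. The log2 difference of number 1 minus number 2, a value with no test once a library is left out, had its lowest and highest values at -0.58 and 1.49 for *IL1B*, -3.02 and 0.031 for *CXCL1*, -1.04 and 3.48 for *CXCL2* and -2.48 and 0.079 for *CXCL3*, and kept its direction for *IL1A* (1.63 to 3.57), *IL6* (7.41 to 8.39), *LIF* (1.23 to 2.25), *CSF2* (5.91 to 10.75), *CXCL8* (-3.37 to -1.80) and *CCL20* (-5.14 to -2.18).
With the block, the median log2 fold change over all genes was 0.13 with upper-quartile normalization and 0.12 with no filter, and all 10 genes stayed above it. Low counts limit *IL6* and *CSF2* in number 2, and the read depth behind the peaks is not given in the sources used here. The peak results of the 10 genes were the same under each alternative run, and these alternatives were not run on the receptors.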
